A study of Mus musculus with 9 samples.

Results

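Neonatal mouse ovaries cultured with benzo[a]pyrene (BaP) at 1 uM were compared with ovaries cultured in the acetone vehicle alone, over every gene of the array. The members are the 3 BaP and the 3 acetone arrays, 6 of the 9 arrays in the series, taken by their treatment labels. The other 3 arrays are of ovaries given 7,12-dimethylbenz[a]anthracene (DMBA) at 50 nM. The ovaries came from Swiss mice at postnatal day 3 to 4 and were kept for 4 days. All groups had 0.01% acetone or a compound in medium with fetal calf serum, insulin, transferrin, selenium, basic fibroblast growth factor, leukemia inhibitory factor and stem cell factor, so the vehicle group was itself growth factor treated. Total RNA of whole ovaries was read on Illumina mouse Ref-8 arrays. Nothing in the labels ties an array to an animal, a pool or a culture, so the spread behind each p-value may be technical.

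BaP is a polycyclic aromatic hydrocarbon of smoke and combustion products. It binds the aryl hydrocarbon receptor (AHR), which moves to the nucleus, pairs with ARNT and switches on genes of oxidation and conjugation. The same enzymes turn BaP into diol epoxides that form adducts on DNA, to which cells respond through p53. The neonatal mouse ovary holds mainly primordial follicles, each an oocyte with flat granulosa cells, within stroma and under a surface epithelium. In such a bulk sample, fewer cells of a type and less RNA per cell cannot be told apart.

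The labelled tissue was checked against its markers on the acetone arrays. The oocyte genes Gdf9 and Zp3 lay at percentiles 99.1 and 98.5 of gene levels, and Inha, a granulosa hormone subunit gene, at 97.5. The granulosa factor gene Foxl2 lay at 49.6 and the germ cell gene Ddx4 at 36.6, close to the lowest signals of the array. BaP arrays were dimmer, with a median intensity of 94.7 to 104.1 against 105.8 to 133.7 on the acetone arrays. Their upper quartile was 199.6 to 231.2 against 268.1 to 418.8, and their mean 309.4 to 353.8 against 417.5 to 613.0. The acetone arrays correlated at 0.9958 to 0.9970 with each other and the BaP arrays at 0.9948 to 0.9957 (Pearson r over genes, which are no replicates).

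A gene counts as called where limma's adjusted p (Benjamini-Hochberg over 17889 genes, two-sided) lies under 0.05, and rose, fell, higher and lower stand for such calls. Levels are log2 signals after quantile normalization, a difference is the mean of the BaP arrays minus the mean of the acetone arrays on that log2 scale, and a value in parentheses after a gene is that difference unless named otherwise. With BaP, 1918 genes were called (10.7% of those tested), 863 higher (4.82%) and 1055 lower (5.9%). Most changes were small, with a median difference of 0.37 among the higher and -0.35 among the lower genes, beside a median standard error of 0.086. Of these, 246 differed at least 1.5-fold, 141 higher and 105 lower, and 28 higher and 19 lower genes differed at least 2-fold. Leaving out acetone replicate 2 left 1092 calls, the fewest of the 6 fits without an array. The BaP and acetone arrays did not overlap in 4409 genes (24.6%), called or not.

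**Figure D1:**
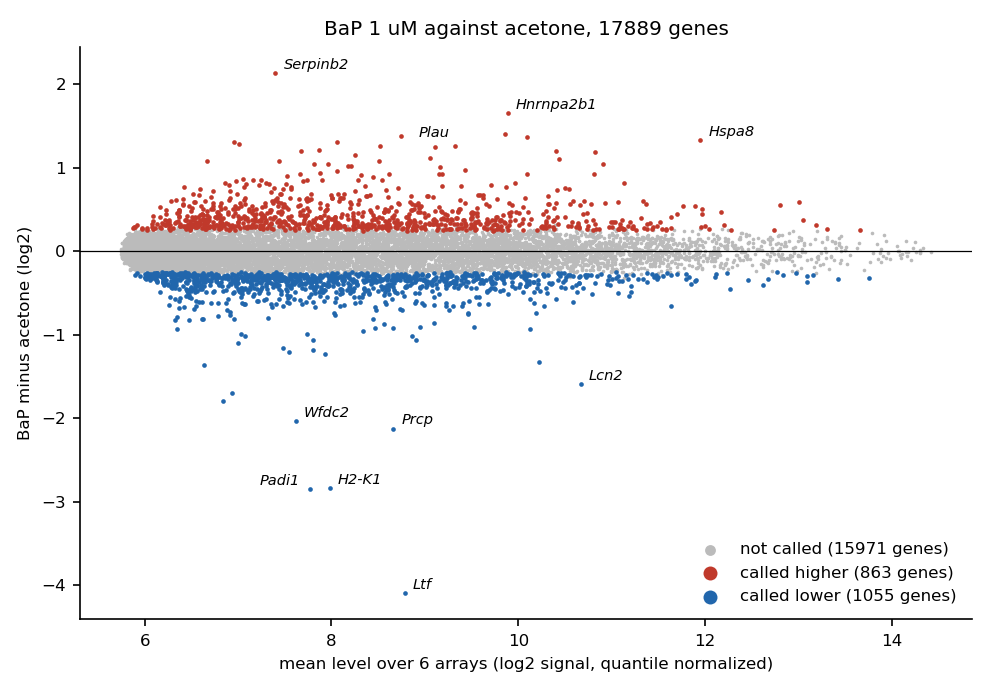
Each point is a gene, with its mean log2 level over the 6 arrays on the x axis and the BaP minus acetone difference (log2) on the y axis. The 863 called higher genes are red, the 1055 called lower genes are blue, and the largest differences are those of Ltf at -4.09 and Serpinb2 at 2.13.

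The scaling of the dimmer arrays weighs on the direction of small differences. Median scaling, which leaves the arrays' distributions otherwise untouched, called 5130 genes, 253 higher (1.41%) and 4877 lower (27.3%), against the split of 863 and 1055 above. It set the median difference of all genes at -0.050, against -0.0049 with quantile normalization, and that of genes above the median level at -0.38. All 1055 lower genes kept a difference below 0 with median scaling, and 990 of them were called lower (5.53% of all genes). Of the 863 higher genes, 488 kept a difference above 0 and 150 were called higher (0.839%). Across the 17 other settings and left-out arrays tried, 111 of the higher and 258 of the lower genes were called the same way each time they were tested. The genes given below with their values on every array are all among these, except Cyp1a1 and Ahrr. Where median scaling moved the share of higher among a list's calls by more than 10 percentage points, its counts follow in parentheses. Where a gene rose and its call was lost with median scaling, the median scaling difference follows after a slash. Of the 863 higher and 1055 lower genes, 436 and 445 were called without each array in turn. List members whose call was lost when an array was left out are counted for some lists only, and are mostly not named. Where a list has no such count, some of its calls may still have been lost. For example, 6 of the 10 higher stromal matrix protein genes were called without each array in turn. The same held for 10 of the 14 lower genes of the oestrogen receptor and induced tract list. Every list count below stands beside the shares of all genes, 4.82% higher and 5.9% lower. These shares vary with level: in the fourth of 5 groups by level they were 10.4% and 13.2%.

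**Figure D2:**
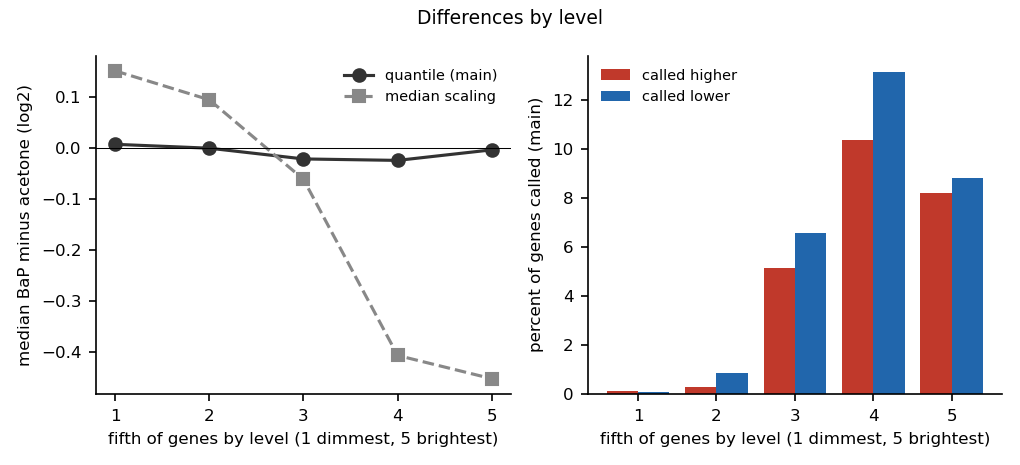
Genes were put in 5 equal groups by mean level (x axis, 1 the dimmest). The left panel gives the median BaP minus acetone difference (log2), near 0 in each group with quantile normalization and falling to -0.45 in the brightest group with median scaling, and the right panel gives the percent of genes called, 0.11% higher and 0.084% lower in the dimmest group against 10.4% and 13.2% in the fourth.

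Genes for secreted defence proteins and for products of oestrogen-responsive tract epithelium were among the largest decreases, which also include H2-K1 and Prcp, described further on. Ltf encodes lactotransferrin, an iron-binding antimicrobial protein that oestrogen induces in the mouse uterus. Its level was 10.94, 10.80 and 10.76 on the acetone arrays and 6.63, 6.81 and 6.77 on the BaP arrays. The groups lay far apart, and the difference was -4.09 (17.1-fold lower, SE 0.09, adjusted p = 3.07e-23) and the largest in size of all genes. A dimmer probe of Ltf, at a mean level of 6.07 near the lowest signals, gave -0.24. Padi1, an enzyme that turns arginine in proteins into citrulline, was at 9.17, 9.11 and 9.30 on the acetone arrays and 6.34, 6.28 and 6.41 on the BaP arrays. It fell to near the lowest signals on each BaP array (log2 -2.85, SE 0.08, adjusted p = 1.45e-19). Wfdc2, a whey acidic protein family member made by genital tract epithelium, was at 8.55, 8.57 and 8.77 on the acetone arrays and 6.55, 6.55 and 6.70 on the BaP arrays (log2 -2.03, SE 0.09, adjusted p = 7.13e-16). Lcn2, which encodes the iron-siderophore carrier lipocalin 2, was at 11.47, 11.42 and 11.50 on the acetone arrays and 9.96, 9.86 and 9.80 on the BaP arrays, and so stayed a bright gene after its fall (log2 -1.59, SE 0.08, adjusted p = 7.49e-14).

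Of 26 measured genes of the oestrogen receptor and induced tract list, 2 rose (7.69%) and 14 fell (53.8%), 1 and 8 of them under all 17 other settings, and the median difference was -0.25. Over all genes the shares were 4.82% and 5.9% and the median difference was -0.0049. The list was written with earlier results of these data known and holds Ltf, Padi1 and Wfdc2 themselves. Its share is therefore a description and no independent support. Besides the genes above, the cornified envelope genes Sprr2f (-1.79) and Sprr2g (-0.57), Padi2 (-0.59) and the gap junction gene Gjb2 (-0.42) fell, and the growth factor gene Areg (0.40) rose. The oestrogen receptor gene Esr2 (-0.31) fell as well, and lost its call without acetone replicate 2. Of 29 secreted antimicrobial and mucosal protein genes, 4 rose and 6 fell, 1 and 5 of them under all 17 other settings (with median scaling 2 higher and 10 lower). Those that fell include the lung collectin gene Sftpd (-1.70) and the peptidoglycan recognition gene Pglyrp1 (-1.10), whereas the beta defensin gene Defb48 (0.81), the chitinase-like Chil1 (0.68/0.19) and the acute phase gene Saa3 (0.59/0.22) rose. The 5 genes that fell among 19 peptidylarginine deiminase and epidermal genes include Padi1, Padi2, Sprr2f and Sprr2g again, and none rose. The median of that list was 0.029 (with median scaling 1 higher and 6 lower).

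Genes of protein breakdown were also among the large changes. Prcp, a lysosomal carboxypeptidase gene, was at 9.67, 9.78 and 9.70 on the acetone arrays and 7.51, 7.60 and 7.67 on the BaP arrays (log2 -2.12, SE 0.08, adjusted p = 8.44e-17). Of 26 cystatin, cathepsin and lysosomal peptidase genes, 3 rose and 6 fell, 1 and 2 of them under all 17 other settings (with median scaling 1 higher and 7 lower). The stefin-like Cstdc4 (-1.36) and the cathepsin gene Ctso (-0.41) fell, and Ctsk (1.02), which encodes a collagen-degrading cathepsin, and Ctsl (0.57/0.17) rose.

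Serpinb2, which encodes the plasminogen activator inhibitor PAI-2 and is known as a dioxin-induced gene of human keratinocytes, rose most. Its level was 6.33, 6.39 and 6.27 on the acetone arrays and 8.37, 8.49 and 8.53 on the BaP arrays. All 3 acetone arrays lay near the lowest signals and all 3 BaP arrays lay well above them (4.39-fold higher, log2 2.13, SE 0.08, adjusted p = 8.44e-17). Plau, which encodes urokinase, one of the proteases that PAI-2 inhibits, was at 8.56, 8.57 and 8.33 on the acetone arrays and 9.77, 9.82 and 9.60 on the BaP arrays, so inhibitor and protease genes rose together (log2 1.25, SE 0.09, adjusted p = 1.03e-10). Of 26 serpin genes, 4 rose and none fell, 1 of them under all 17 other settings (with median scaling 1 higher and 5 lower), and Serpinb2 is the one held in all. The number that rose was smaller without acetone replicate 2 (2) or BaP replicate 3 (2). Of 31 matrix protease and inhibitor genes, 7 rose and 3 fell, 3 and 1 of them under all 17 other settings (with median scaling 3 higher and 8 lower). Besides Plau and Ctsk, the stromelysin gene Mmp3 (0.61) rose, while the gelatinase gene Mmp9 (-0.76) and the membrane-type Mmp15 (-0.39) fell.

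Matrix genes of stroma were called mostly higher, but mostly lower with median scaling. Of 32 stromal matrix protein genes, 10 rose (31.2%) and 2 fell (6.25%), 3 and 1 of them under all 17 other settings (with median scaling 4 higher and 11 lower), with a median of 0.075 that median scaling turned to -0.17. Fbln2, which encodes an elastic fibre and basement membrane glycoprotein, was at 8.72, 8.71 and 8.54 on the acetone arrays and 9.55, 9.76 and 9.68 on the BaP arrays (log2 1.01, SE 0.09, adjusted p = 2.71e-09), while dimmer probes of Fbln2 gave 0.11 and 0.033 at levels of 6.57 and 6.05. The secreted Spon2 (1.20) and the thrombospondin gene Thbs1 (0.69) rose as well, as did Lox (0.92/0.45), the collagen cross-linking enzyme gene. The basement membrane gene Nid1 (-0.43) fell. Of 22 collagen genes, 1 rose and 3 fell, none of them under all 17 other settings (with median scaling none higher and 10 lower). The fibrillar Col3a1 (0.82/0.35) rose, with 1.08 on a second probe, and the basement membrane collagen gene Col4a2 (-0.42) fell.

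**Figure D3:**
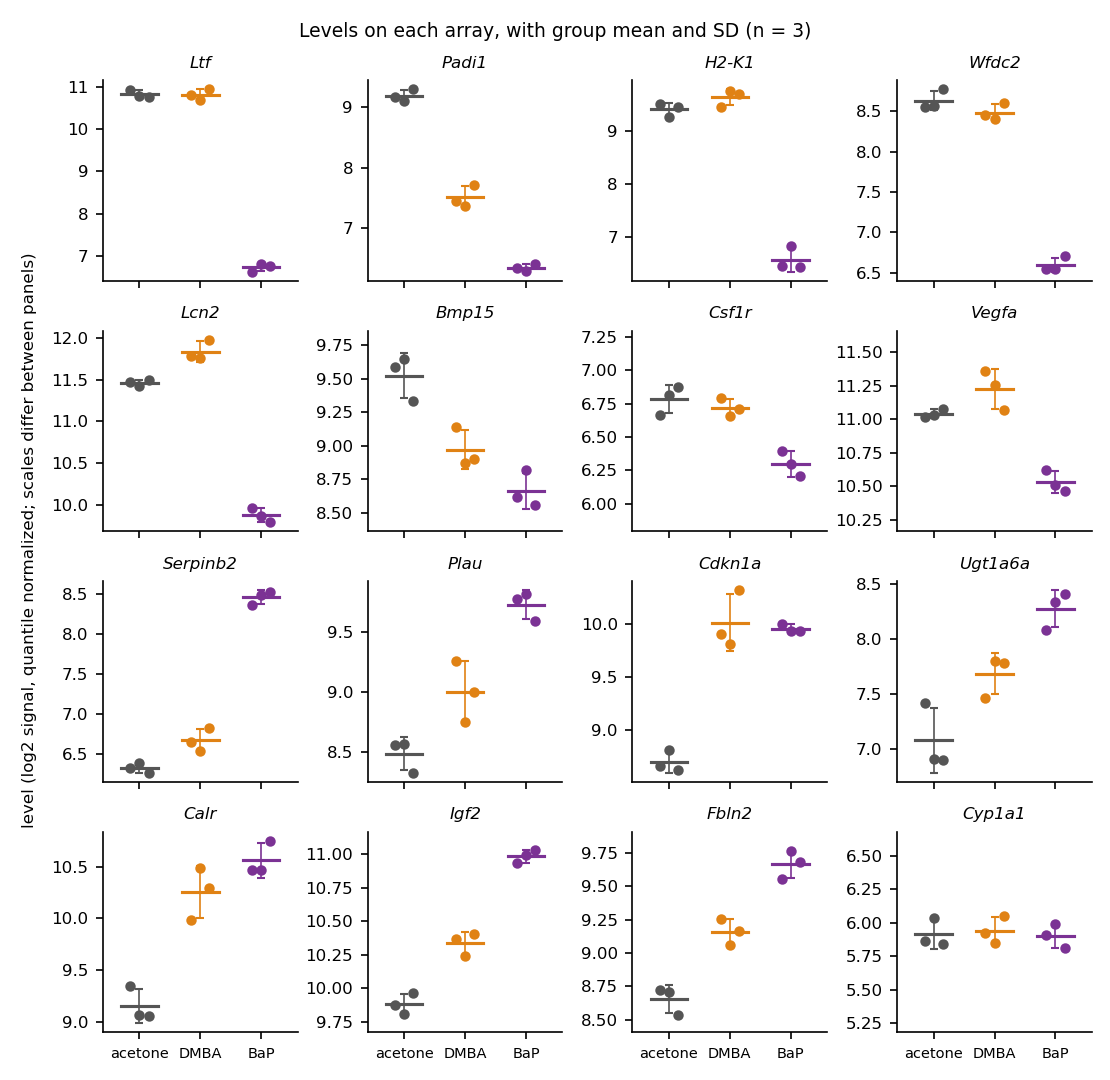
The log2 level of 16 genes is shown on each acetone, DMBA and BaP array (points), with the group mean (line) and SD (bar, n = 3), on a scale that differs between panels. Ltf, H2-K1, Wfdc2 and Lcn2 lie low on the 3 BaP arrays alone, Serpinb2 lies high on them, Cdkn1a and Calr lie high with both compounds, and Cyp1a1 lies near the lowest signals on all 9 arrays.

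Genes of the AHR pathway rose in part. Of 14 measured members, 5 rose (35.7%) and none fell, 2 of them under all 17 other settings, with a median of 0.12 (0.18 with median scaling). Ugt1a6a, which encodes a glucuronosyltransferase that conjugates BaP phenols and quinones, was at 7.42, 6.91 and 6.90 on the acetone arrays and 8.09, 8.33 and 8.41 on the BaP arrays. The spread on the acetone arrays was wide, but no acetone array reached a BaP array (log2 1.20, SE 0.11, adjusted p = 1.08e-08). A dimmer Ugt1a6a probe gave 0.28 at a level of 6.91. Xdh, which encodes xanthine dehydrogenase, was at 9.61, 9.64 and 9.62 on the acetone arrays and 10.56, 10.62 and 10.48 on the BaP arrays (log2 0.93, SE 0.08, adjusted p = 4.53e-09). The quinone reductase gene Nqo1 (0.50) and Nfe2l2 (0.51/0.16), which encodes the antioxidant regulator NRF2, also rose. Both lost the call when the probes of a gene were averaged.

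The fifth member to rise, Ahrr, encodes the repressor that AHR itself induces. It was at 6.30, 6.26 and 6.35 on the acetone arrays and 6.71, 6.52 and 6.49 on the BaP arrays (log2 0.27, SE 0.09, adjusted p = 0.0407), a small change at a low level that lost its call in 13 of the 17 other settings. These include median scaling (0.20), the deposited values (0.19) and leaving out any array but BaP replicate 3. It lies outside the rule for named genes and was named after its value was seen. Cyp1a1, the classical AHR target that oxidises BaP, was at 5.87, 6.04 and 5.84 on the acetone arrays and 5.91, 5.99 and 5.81 on the BaP arrays and was not called (log2 -0.012, 95% interval -0.19 to 0.17). Its level ranked at percentile 10.3, with values close to the lowest signals in each group. Cyp1b1, the related oxidase of steroid-forming tissues, was bright (percentile 92.4) and not called either (log2 0.13, 95% interval -0.038 to 0.30), with a difference of -0.33 under median scaling.

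AHR with ARNT binds DNA at the core letters GCGTG. The windows of Ahrr and Cyp1a1 from 250 bases before to 50 after the start of the gene (RefSeq, GRCm38.p6) are printed because the first rose and the second is the classical target; they are written 5′ to 3′ on the strand of the gene, with each GCGTG, on either strand, in capitals. Ahrr lies at chr13:74292282-74292581 on the minus strand and Cyp1a1 at chr9:57697363-57697662 on the plus strand.
Ahrr: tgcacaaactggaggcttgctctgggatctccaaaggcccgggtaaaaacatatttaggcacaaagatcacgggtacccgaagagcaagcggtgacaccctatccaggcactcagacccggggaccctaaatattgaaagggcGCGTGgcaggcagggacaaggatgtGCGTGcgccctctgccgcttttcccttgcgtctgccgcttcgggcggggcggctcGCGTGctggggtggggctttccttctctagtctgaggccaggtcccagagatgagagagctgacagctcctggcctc
Cyp1a1: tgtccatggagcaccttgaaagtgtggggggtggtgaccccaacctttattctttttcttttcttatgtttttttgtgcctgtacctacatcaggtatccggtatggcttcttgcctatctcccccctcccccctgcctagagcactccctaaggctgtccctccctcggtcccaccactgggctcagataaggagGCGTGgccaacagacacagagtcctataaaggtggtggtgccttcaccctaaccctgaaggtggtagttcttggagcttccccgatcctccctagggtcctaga
The Ahrr window holds 3 matches, which begin 107, 82 and 27 bases before the start, and the Cyp1a1 window holds 1, at 54 bases before it. The windows of Ugt1a6a, Nqo1, Nfe2l2, Ltf, Serpinb2 and Lcn2 hold none, and those of Cyp1b1, Padi1 and Wfdc2 hold 1 each. GCGTG or its reverse complement CACGC stood in 44.4% of 13684 measured genes with a window, in 54.2% of 660 called higher, in 52.2% of 809 called lower and in 43.4% of those not called. Among genes called with both scalings the share was 47.4% of 114 higher and 53.8% of 769 lower genes. A match is a description of these letters, not a binding site. Few dim genes were called, so the shares of called and not called genes are not set at a matched level.

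Antioxidant and conjugating enzymes otherwise went both ways. Of 23 NRF2 and antioxidant genes, 4 rose and 3 fell, none of them under all 17 other settings (with median scaling 1 higher and 11 lower). The sulfiredoxin gene Srxn1 (-0.48) and the haem oxygenase gene Hmox1 (-0.38) fell, the second without a call when acetone replicate 2 or BaP replicate 2 was left out. The higher count shrank without acetone replicate 1 (2), acetone replicate 2 (2) or BaP replicate 2 (2). Of 22 glutathione transferase genes, 2 rose and 3 fell, none and 1 of them under all 17 other settings (with median scaling none higher and 12 lower), with Gstt2 (-0.55) among the lower genes and the microsomal Mgst2 (0.44/0.14) among the higher. Ephx1 (0.50/0.018), the microsomal epoxide hydrolase gene of the diol epoxide route, rose. Of 24 purine synthesis and breakdown enzymes, 4 rose and 1 fell, 2 and 1 of them under all 17 other settings (with median scaling 2 higher and 9 lower). A smaller number rose without acetone replicate 1 (2) or acetone replicate 2 (2). Adss, which encodes a step of AMP synthesis, rose from a level of 7.41 ± 0.22 to 8.71 ± 0.26 (SD, n = 3; log2 1.31, SE 0.11, adjusted p = 1.96e-09), Xdh rose as above and the urate oxidase gene Uox (-0.82) fell.

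Among p53 targets the cell cycle inhibitor gene Cdkn1a (p21) changed most. It was at 8.65, 8.81 and 8.62 on the acetone arrays and 10.003, 9.93 and 9.93 on the BaP arrays, with the BaP arrays close together and all above the acetone arrays (log2 1.26, SE 0.08, adjusted p = 2.04e-11). Other Cdkn1a probes gave 0.63 and 0.95 at levels of 7.92 and 7.63. Of 37 p53 targets, 6 rose and 1 fell, 2 and none of them under all 17 other settings (with median scaling 2 higher and 11 lower), with a median of 0.078 that median scaling turned to -0.22. The AKT repressor gene Phlda3 (0.93) rose with both scalings, the autophagy and death gene Trp53inp1 (0.57/0.085) and the death receptor gene Fas (0.49/0.013) rose, and the sestrin gene Sesn1 (-0.39) fell, losing its call without acetone replicate 2. The p53 inhibitor Mdm2 (-0.089) and the pro-apoptotic Bax (-0.09) were not called, and a second bright probe of Mdm2 gave 0.22 at a level of 10.02.

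Of 36 core apoptosis genes, 2 rose and 6 fell, none and 2 of them under all 17 other settings (with median scaling none higher and 18 lower). The BH3-only gene Bik (-0.60) and the BAX-like Bok (-0.49) fell, as did the caspase genes Casp9 (-0.44) and Casp8 (-0.38), while Fas and the TNF receptor gene Tnfrsf1a (0.58/0.11) rose. Of 40 DNA repair and checkpoint genes, 2 rose (5%) and 4 fell (10%), none of them under all 17 other settings (with median scaling none higher and 17 lower). The shares of all genes were 4.82% and 5.9%. The crosslink repair gene Brca2 (-0.34) fell, and the bypass polymerase gene Polh (0.36/0.23) rose. The number that fell was smaller without acetone replicate 1 (2), acetone replicate 2 (1), acetone replicate 3 (1) or BaP replicate 2 (2). Of 45 cell cycle and replication genes, 7 rose and 6 fell, 2 and 1 of them under all 17 other settings (with median scaling 3 higher and 19 lower). The replicative helicase gene Mcm7 (0.81) and the cyclin gene Ccnd2 (0.67/0.19) rose. Mcm6 (-0.44), the partner of Mcm7 in that helicase, and the spindle checkpoint genes Bub1b (-0.43) and Mad2l1 (-0.38) fell. The lower count shrank without acetone replicate 1 (3) or acetone replicate 2 (3).

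More oocyte genes were called lower than higher. Of 10 zona and secreted factor genes, none rose and 4 fell, 2 of them under all 17 other settings, with a median of -0.19. A smaller number fell without acetone replicate 1 (2) or BaP replicate 2 (2). The 4 that fell, Bmp15, Oosp1, Gdf9 and Fgf8, are secreted factor genes. The zona genes Zp1, Zp2 and Zp3 were not called. Their mean levels were 10.24, 6.65 and 12.12 on the acetone arrays and 10.24, 6.66 and 12.38 on the BaP arrays. The list's summed level was 13.67 to 13.82 on the acetone arrays and 13.55 to 13.67 on the BaP arrays (log2 of the summed signals). Bmp15, an oocyte growth factor that acts on granulosa cells, was at 9.59, 9.65 and 9.33 on the acetone arrays and 8.61, 8.82 and 8.56 on the BaP arrays (log2 -0.86, SE 0.09, adjusted p = 1.93e-07). Its BaP arrays all lay below its acetone arrays. Oosp1, which encodes an oocyte-secreted protein, was at 8.64, 8.83 and 8.98 on the acetone arrays and 7.92, 7.76 and 7.89 on the BaP arrays (log2 -0.96, SE 0.09, adjusted p = 1.65e-08). The partner growth factor gene Gdf9 (-0.34) fell less, from 12.62 ± 0.18 to 12.29 ± 0.04 (SD, n = 3), and lost its call without acetone replicate 1 or BaP replicate 2.

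Of 36 oocyte regulator and maternal genes, 2 rose (5.56%) and 10 fell (27.8%), 1 and 4 of them under all 17 other settings (with median scaling 1 higher and 21 lower), and the median was -0.081. Fewer fell without acetone replicate 3 (6). The level of this list summed over its members was 16.15 to 16.22 on the acetone arrays and 16.19 to 16.23 on the BaP arrays (log2 of the summed signals). Ftdc2 (-0.73), Rfpl4 (-0.54), an oocyte ubiquitin ligase gene, and the BCL2 family gene Bcl2l10 (-0.44) fell, while Spin1 (0.79), which encodes the spindle-binding chromatin reader spindlin, and the maternal Nlrp5 (0.37/0.039) rose. Of 29 germ cell, meiosis and piRNA genes, 1 rose (3.45%) and 3 fell (10.3%), none and 2 of them under all 17 other settings (with median scaling 1 higher and 10 lower). The shares of all genes were 4.82% and 5.9%. The summed level of this list was 13.50 to 13.56 on the acetone arrays and 13.31 to 13.33 on the BaP arrays. The meiotic cohesin gene Smc1b (-0.70) and the RNA-binding Dazl (-0.46) fell, and the germ cell helicase gene Ddx4 (0.46) rose, from a low level of 6.12 ± 0.08 to 6.58 ± 0.02 (SD, n = 3), while its dimmer probes gave -0.044 and 0.008. Pramel25, of the PRAME-like family, fell as well (log2 -1.20, SE 0.09, adjusted p = 2.36e-10).

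Of 32 granulosa cell genes, 3 rose (9.38%) and 8 fell (25%), none and 2 of them under all 17 other settings (with median scaling none higher and 13 lower), with a median of -0.054. The number that fell was smaller without acetone replicate 2 (4) or acetone replicate 3 (5). Hsd17b1, which encodes the enzyme that makes oestradiol from oestrone, was at 9.66, 9.75 and 9.78 on the acetone arrays and 9.04, 8.88 and 9.30 on the BaP arrays (log2 -0.66, SE 0.09, adjusted p = 1.54e-05). The Notch effector gene Hey2 (-0.38), the oestrogen target Greb1 (-0.35) and the oestrogen receptor gene Esr2 fell, and the granulosa identity factor gene Foxl2 (0.43/0.28) rose from a low level of 6.41 ± 0.11 to 6.85 ± 0.21 (SD, n = 3). Of 26 theca and steroid synthesis genes, 1 rose (3.85%) and 2 fell (7.69%), beside 4.82% and 5.9% of all genes. Under all 17 other settings 1 and 1 of them held (with median scaling 1 higher and 8 lower). The progesterone-inactivating enzyme gene Akr1c18 (0.68) rose and Hsd17b1 fell. Of 35 PI3K and mTOR follicle activation genes, 3 rose (8.57%) and 3 fell (8.57%), beside 4.82% and 5.9% of all genes. Under all 17 other settings 1 and 2 of them held (with median scaling 1 higher and 16 lower). The growth factor gene Igf2 was at 9.87, 9.81 and 9.96 on the acetone arrays and 10.93, 10.99 and 11.03 on the BaP arrays (log2 1.10, SE 0.08, adjusted p = 2.21e-10), the kinase gene Pik3cd (-0.57) and the mTOR inhibitor gene Deptor (-0.51) fell, and the cell cycle inhibitor gene Cdkn1b (0.33/0.24) rose. Of 44 BMP, activin and GDF signalling genes, 6 rose and 9 fell, 1 and 1 of them under all 17 other settings (with median scaling 1 higher and 16 lower), with Bmp15 and Bmp7 (-0.42) among the lower genes and Gdf10 (0.86) among the higher. Fewer rose without acetone replicate 2 (2), acetone replicate 3 (3), BaP replicate 1 (3) or BaP replicate 2 (3). The lower count shrank without acetone replicate 3 (5) or BaP replicate 2 (4).

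**Figure D4:**
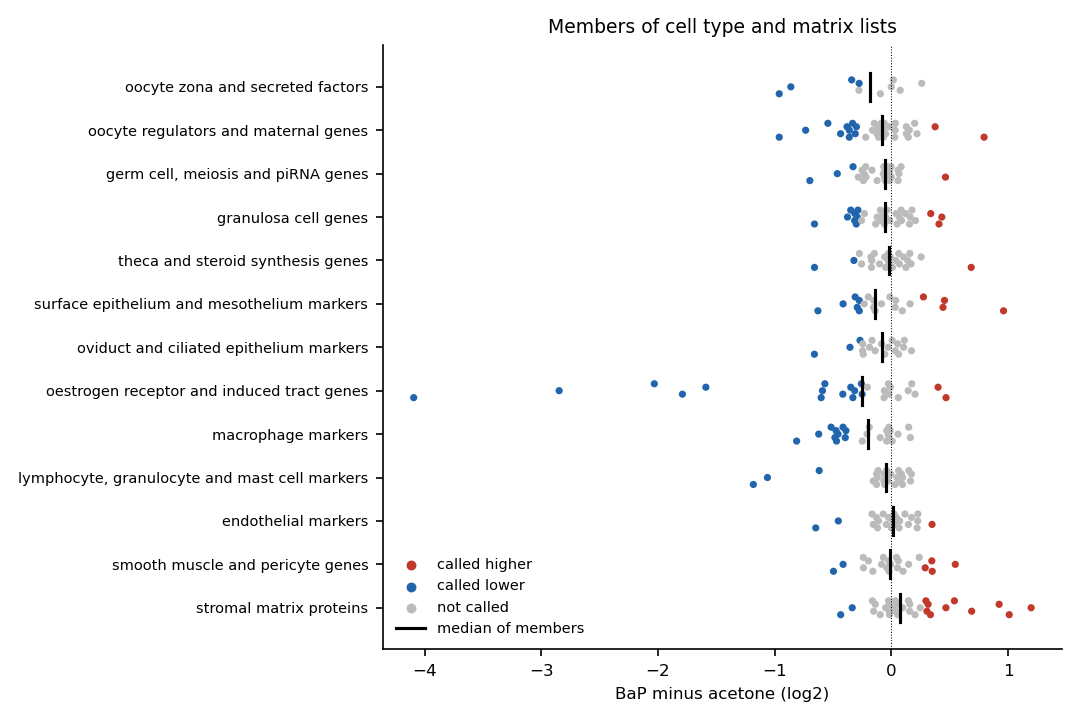
Each point is a measured member of a list, placed by its BaP minus acetone difference (log2). Points are red where called higher, blue where called lower and grey where not called, with the median of the list as a black line. The lists are of cell types, except that the theca and steroid synthesis and the oestrogen receptor and induced tract lists are of pathways. Called macrophage markers lie below 0 without exception, the oestrogen receptor and induced tract list spreads down to Ltf at -4.09, and the stromal matrix list holds 10 higher and 2 lower members (4 and 11 with median scaling).

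Epithelial genes went both ways, beside 4.82% higher and 5.9% lower among all genes. Of 21 surface epithelium and mesothelium markers, 4 rose and 6 fell, 1 and 2 of them under all 17 other settings (with median scaling 1 higher and 14 lower), with a median of -0.14. The keratin gene Krt19 (-0.63) and the E-cadherin gene Cdh1 (-0.41) fell, and the claudin gene Cldn15 (0.96) and the mesothelial Upk1b (0.44/0.22) and Bnc1 (0.46/0.0013) rose. A smaller number fell without acetone replicate 2 (3) or acetone replicate 3 (2). Of 19 keratin genes, 2 rose and 4 fell, 1 and 2 of them under all 17 other settings (with median scaling 1 higher and 6 lower), Krt14 (-0.61) being among the lower and Krt23 (0.44) among the higher. Fewer fell without acetone replicate 3 (2). Of 30 claudin and junction genes, 3 rose and 8 fell, 2 and 3 of them under all 17 other settings. The number that fell was smaller without acetone replicate 2 (5). Cldn12 (log2 -1.16, SE 0.09, adjusted p = 5.19e-10) and the junction adhesion gene F11r (-0.99) fell, and Cldn15 and Cldn11 (0.81) rose. Of 19 oviduct and ciliated epithelium markers, none rose and 3 fell (15.8%), led by the dynein light chain gene Dynlrb2 (-0.66). Under all 17 other settings 1 of the 3 held. The level of the list summed over its members was 10.82 to 10.88 (log2 of the summed signals) on the acetone arrays and 10.72 to 10.80 on the BaP arrays. The part of tract cells in the decreases of tract genes above was not tested.

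Macrophage markers were called in 1 direction, beside 4.82% higher and 5.9% lower among all genes. Of 24 measured, none rose and 10 fell (41.7%), 6 of them under all 17 other settings, and all 10 were called without each array in turn; the median was -0.20. The CSF1 receptor gene Csf1r, which macrophages need to survive, was at 6.67, 6.81 and 6.87 on the acetone arrays and 6.40, 6.30 and 6.21 on the BaP arrays (log2 -0.48, SE 0.09, adjusted p = 0.000283). The groups did not overlap, as was so for 24.6% of all genes, though the level on the BaP arrays is close to the lowest signals. The fractalkine receptor gene Cx3cr1 (-0.81), the adaptor gene Tyrobp (-0.62), Aif1 (-0.52), which encodes the macrophage marker IBA1, and the complement gene C1qc (-0.47) fell too. The level of the markers summed was 13.39 to 13.43 on the acetone arrays and 13.13 to 13.20 on the BaP arrays (log2 of the summed signals). Of 25 lymphocyte, granulocyte and mast cell markers, none rose and 3 fell, all 3 of them under all 17 other settings, namely the leukocyte actin regulator gene Coro1a (log2 -1.18, SE 0.10, adjusted p = 1.76e-09; -1.002 on a second probe), Cd52 (-1.06) and Rac2 (-0.62), which macrophages express too.

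Of 31 MHC and antigen presentation genes, 4 rose and 6 fell, 1 and 3 of them under all 17 other settings (with median scaling 1 higher and 17 lower). H2-K1, a classical class I gene, was at 9.50, 9.25 and 9.44 on the acetone arrays and 6.45, 6.82 and 6.42 on the BaP arrays, and so fell from a moderate level to near the lowest signals (log2 -2.83, SE 0.10, adjusted p = 6.79e-18). H2-Ea, a class II gene, was at 6.16, 6.27 and 6.46 on the acetone arrays and 7.56, 7.64 and 7.63 on the BaP arrays, and rose in turn (log2 1.31, SE 0.09, adjusted p = 2.09e-11). The class I-like H2-T23 (-1.01), the class II invariant chain gene Cd74 (-0.57) and the class I light chain gene B2m (-0.40) fell, and the peptide loading gene Tapbp (0.43/0.056) rose. A dimmer probe of H2-T23 gave -0.016. MHC genes are near-identical copies that differ between mouse strains, so which copy a probe reads is uncertain. Whether the animals of both groups carried the same copies is not in the labels and was not tested. Of 36 interferon response genes, 2 rose (5.56%) and 1 fell (2.78%), beside 4.82% and 5.9% of all genes. Under all 17 other settings none and 1 of them held (with median scaling none higher and 13 lower). Irf8 (-0.47), a factor of macrophage development, is the one that fell.

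Of 25 complement genes, 5 rose (20%) and 5 fell (20%), beside 4.82% and 5.9% of all genes. Under all 17 other settings 1 and 1 of them held (with median scaling 1 higher and 7 lower). The protease gene C1s1, active in the classical pathway, rose (log2 1.02, SE 0.11, adjusted p = 8.79e-08), and C1qc, C1qb (-0.40) and the properdin gene Cfp (-0.38) fell. Of 39 chemokine and receptor genes, 5 rose and 7 fell, 2 and 4 of them under all 17 other settings (with median scaling 3 higher and 7 lower). The lower count shrank without acetone replicate 2 (4). The macrophage chemokine genes Ccl3 (-0.56) and Ccl5 (-0.47) and Cxcl15 (-0.55) fell, and the B cell attractant gene Cxcl13 (0.77), Ccl6 (0.49), the stromal Cxcl12 (0.73/0.28) and the neutrophil attractant gene Cxcl1 (0.61/0.22) rose. Of 30 cytokine and acute inflammation genes, 3 rose and 3 fell, none and 1 of them under all 17 other settings (with median scaling 1 higher and 10 lower). The prostaglandin synthase gene Ptges (-0.33) fell along with Lcn2, and the IL-33 receptor gene Il1rl1 (0.49) rose.

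**Figure D5:**
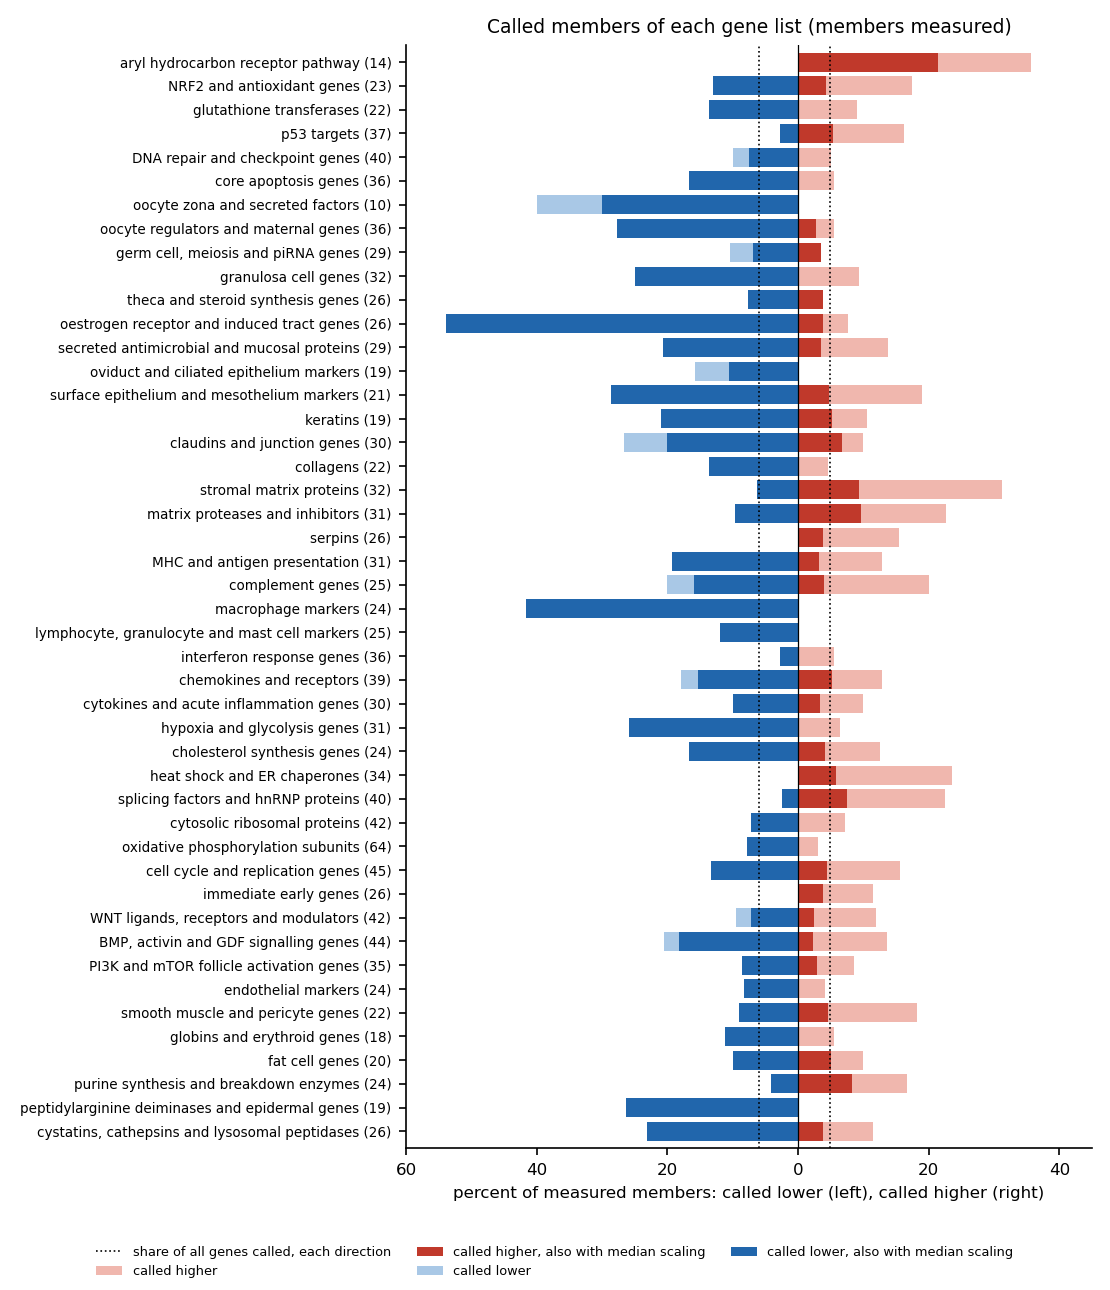
For each of 46 gene lists (number of measured members in brackets) the bars give the percent of members called lower with BaP, to the left, and called higher, to the right, in dark colours where the call also held with median scaling. The lists were written with earlier results of these data known. The dotted lines are the shares of all genes, 4.82% higher and 5.9% lower; the longest bars to the left are those of the oestrogen receptor and induced tract list (53.8%) and the macrophage list (41.7%), and the longest to the right is that of the AHR pathway (35.7%).

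Of 31 genes of low oxygen response and glycolysis, 2 rose (6.45%) and 8 fell (25.8%), none and 5 of them under all 17 other settings (with median scaling none higher and 20 lower), with a median of -0.14. Vegfa, which encodes the vascular growth factor VEGF-A, was at 11.01, 11.03 and 11.08 on the acetone arrays and 10.62, 10.51 and 10.46 on the BaP arrays (log2 -0.51, SE 0.08, adjusted p = 9e-05), and a second bright probe gave -0.51. The glycolytic Aldoa (-0.66), the stress gene Ndrg1 (-0.55) and Pdk1 (-0.50), whose product keeps pyruvate out of the citric acid cycle, fell as well. Hif1a (0.69/0.30), which encodes the oxygen-regulated transcription factor above these genes, rose. Of 24 endothelial markers, 1 rose (4.17%) and 2 fell (8.33%), beside 4.82% and 5.9% of all genes. Under all 17 other settings none and 2 of them held (with median scaling none higher and 5 lower). The lower ones were Sox18 (-0.65), a vascular transcription factor gene, and Plvap (-0.45). Of 22 smooth muscle and pericyte genes, 4 rose and 2 fell, none and 2 of them under all 17 other settings (with median scaling 1 higher and 7 lower), with the contractile Myh11 (-0.50) and Actg2 (-0.41) among the lower and Des (0.55/0.22) among the higher. The number that rose was smaller without acetone replicate 1 (1) or BaP replicate 2 (2).

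Chaperone and RNA-binding protein genes held some of the largest increases. Among all genes, 4.82% were called higher and 5.9% lower. Of 34 heat shock and ER chaperone genes, 8 rose and none fell, 2 of them under all 17 other settings (with median scaling 3 higher and 15 lower), with a median of 0.079 that median scaling turned to -0.30. The higher count shrank without acetone replicate 1 (5), acetone replicate 2 (4) or BaP replicate 1 (4). The ER lectin chaperone gene Calr was at 9.35, 9.06 and 9.05 on the acetone arrays and 10.46, 10.46 and 10.75 on the BaP arrays (log2 1.40, SE 0.10, adjusted p = 3.07e-11), and the constitutive cytosolic chaperone gene Hspa8 was at 11.63, 11.16 and 11.04 on the acetone arrays and 12.37, 12.69 and 12.77 on the BaP arrays (log2 1.33, SE 0.12, adjusted p = 3.84e-09). These 2 members stand apart from the rest of the list, whose next value is 0.44 for Hspb8 (-0.04 with median scaling). Of 40 splicing factor and hnRNP genes, 9 rose and 1 fell, 2 and none of them under all 17 other settings (with median scaling 3 higher and 13 lower), with a median of 0.037 that median scaling turned to -0.17. A smaller number rose without acetone replicate 2 (5). Hnrnpa2b1 (log2 1.65, SE 0.10, adjusted p = 1.02e-12) and the RNA helicase gene Ddx5 (log2 1.28, SE 0.09, adjusted p = 1.24e-10) rose most. Other probes of the same genes did not follow: those of Hnrnpa2b1 gave 0.14 and 0.038 at levels of 7.28 and 5.93, and that of Ddx5 gave -0.029 at 5.91, near the lowest signals. Srsf5 (0.75) and Hnrnpk (0.93), also called higher, are given without their median scaling differences. A bright further probe of Srsf5 gave -0.18 at a level of 10.45. Those of Hnrnpk gave 0.0076 and -0.17 at 7.07 and 5.99. When the probes of a gene were averaged, 15 of the genes named as called (Srsf5 and Hnrnpk not counted) lost the call, namely Bcl2l10 (-0.19), Brca2 (-0.21), Casp9 (-0.066), Cdkn1b (0.13), Ctso (-0.23), Ddx4 (0.14), Esr2 (-0.10), Gjb2 (-0.13), Il1rl1 (0.16), Mcm6 (-0.16), Nfe2l2 (0.25), Nqo1 (0.20), Ptges (-0.13), Sesn1 (-0.056) and Srxn1 (-0.13). A further probe went against the tested one for Bcl2l10 (0.065), Casp9 (0.14 and 0.10), Ddx4 (-0.044), Esr2 (0.045), Gjb2 (0.057) and Il1rl1 (-0.16). The same held for Mcm6 (0.26), Nfe2l2 (-0.014), Nqo1 (-0.094), Ptges (0.073), Sesn1 (0.28) and Srxn1 (0.10). These probes lay at levels from 5.87 to 7.01. The further probes of Brca2, Cdkn1b and Ctso went with the tested one. So did brighter further probes of Mcm6 (-0.30 and -0.16, at levels of 9.69 and 9.45). Other probes of Esr2 (-0.040), Gjb2 (-0.023), Ddx4 (0.008) and Srxn1 (-0.0075) went with the tested one too. Over all genes called at least 1.5-fold, 64 further probes lay above the median probe level, of which 53 went in the direction of the tested probe and 27 by at least 50% of its size.

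Of 24 cholesterol synthesis genes, 3 rose and 4 fell, 1 and none of them under all 17 other settings (with median scaling 1 higher and 14 lower). A smaller number fell without acetone replicate 2 (1), acetone replicate 3 (2) or BaP replicate 3 (2). Insig1, the sterol sensor that restrains the pathway, rose (log2 0.94, SE 0.12, adjusted p = 2.64e-06; 0.55 and 0.86 on other bright probes), and the pathway enzyme gene Nsdhl (0.76/0.28) rose. Further large changes outside these groups were increases of Brat1 (log2 1.38, SE 0.09, adjusted p = 2.4e-11), the dynein light chain gene Dynll2 (1.26), the peroxisomal carrier gene Slc25a17 (1.22) and Tsc22d1 (1.19), and decreases of the cell adhesion gene Tenm4 (log2 -1.32, SE 0.11, adjusted p = 7.76e-10) and the mitochondrial pseudouridine synthase-like gene Rpusd4 (-1.23). Dimmer probes of Brat1 (-0.12 and -0.052), Dynll2 (-0.16) and Tsc22d1 (0.027) gave values near 0, at levels from 5.94 to 6.47.

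DMBA carries methyl groups and BaP none, and their doses differ, 50 nM against 1 uM, so no difference between them is one at a matched dose. Between BaP and DMBA arrays limma called 260 genes (1.45%), 120 higher (0.671%) and 140 lower (0.783%) with BaP. With 1 array left out the calls numbered 297, 91 and 798 for DMBA replicates 1 to 3 and 84, 89 and 75 for BaP replicates 1 to 3. Ltf was at 10.81, 10.68 and 10.95 on the DMBA arrays, overlapping its acetone levels, and BaP minus DMBA was -4.08 (SE 0.09, adjusted p = 7.45e-10). Serpinb2 was at 6.65, 6.54 and 6.83 with DMBA, just above its acetone levels, and BaP minus DMBA was 1.79 (SE 0.10, adjusted p = 1.52e-06). Lcn2 was at 11.78, 11.76 and 11.98 with DMBA, above every acetone array, against the fall with BaP, and BaP minus DMBA was -1.96 (SE 0.09, adjusted p = 5.9e-07). H2-K1 was at 9.45, 9.74 and 9.69 with DMBA, overlapping its acetone levels, and BaP minus DMBA was -3.06 (SE 0.12, adjusted p = 1.42e-07).

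Set against DMBA, 10 of 24 macrophage markers were called lower with BaP and none was called higher, and 4 to 13 were called lower with an array left out. C1qc was at 8.96, 9.10 and 9.27 with DMBA, above its acetone levels of 8.42, 8.45 and 8.53, and at 8.04, 7.92 and 8.01 with BaP, so the compounds lay on opposite sides of the vehicle. BaP minus DMBA was -1.12 (SE 0.10, adjusted p = 0.000124) for C1qc. Of 31 hypoxia and glycolysis genes, 7 were called lower than with DMBA (1 to 11 with an array left out), among them Vegfa at -0.69 (SE 0.10, adjusted p = 0.004). Of 32 stromal matrix genes, 6 were called higher than with DMBA (2 to 9 with an array left out and 1 with median scaling), among them Fbln2 at 0.51 (SE 0.09, adjusted p = 0.0169), a call that was lost without DMBA replicate 2 and without each BaP array. Cdkn1a was at 9.91, 9.81 and 10.32 with DMBA, and Calr at 9.98, 10.48 and 10.29; for these 2 genes the difference between compounds was not called, at -0.059 (95% interval -0.32 to 0.20) and 0.31 (0.026 to 0.59). Bmp15 was at 9.14, 8.87 and 8.90 and Padi1 at 7.45, 7.36 and 7.72 with DMBA, between acetone and BaP in both cases. BaP minus DMBA was -1.17 (SE 0.10, adjusted p = 0.000125) for Padi1, and -0.31 (95% interval -0.53 to -0.084) and not called for Bmp15.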

How the data were processed

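Levels come from 9 Illumina arrays, 3 a group. Per the file headers, the authors deposited 1 table of probe intensity before normalization, on a linear scale and without detection calls, and 1 table of normalized log2 values; lumi stands in the submitters' processing notes. Per the file headers, the authors' reports give each probe a linear ratio of acetone over BaP and an unadjusted p-value, on a sheet called ANOVA; the model is unstated, and 31 of the BaP p-value cells hold clock times.

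The reports name genes and the value tables name probes. A probe took the report row whose 2 ratios lay within 1e-04 (log2) of its own group differences. This named 25649 of 25697 probes (median distance 4.5e-06; next row 9.63e-04), and 48 were left out. As a check, the spread that the deposited p-value implies tracked the arrays' own spread with a Spearman rho of 0.901 in the rows taken, against 0.0901 in the next nearest (8016 probes). RefSeq's GRCm38.p6 table named 23692 probes by accession, 852 by symbol and 434 by synonym, and 671 kept the deposited name.

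Here, intensities went through normexp (offset 50), log2 and quantile normalization over 9 arrays, without a filter on dim genes. The brightest probe of each of 17889 genes was tested with limma 3.58.1 (lmFit and eBayes, R 4.3.3) on the 6 arrays of a comparison. Tables and figures were made in Python 3.11.15 (pandas 2.3.3, numpy 2.4.6, matplotlib 3.10.9, scipy 1.17.1). The fit was first tested on simulated data. The number of arrays limits the precision. Slide and scan time were not used here, so no batch could be tested, and shared replicate numbers do not pair the arrays.

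The text names, from called genes without overlap between groups, the 15 that rose most and the 15 that fell most, up to 4 called members per direction of each of 46 lists, and genes of a panel of 20, though not all that this rule takes. The panel genes Actb, Gapdh, Foxo3 and Amh, not described above, were not called. The tested probe of Actb gave 0.25, while bright further probes gave -0.68 and 0.57 at levels of 12.38 and 11.08. Members, lists and panel were chosen with earlier results of these data known. Alternatives were median scaling, quantile normalization over 6 arrays, the deposited log2 values, cyclic loess (added after seeing the data), an offset of 16, no normexp, brighter genes only, the mean over probes, 9 arrays in one fit, a trend on level, the replicate number as a block, and each array left out.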

Additional observations from a re-analysis of the deposited data

How the results depend on the processing

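The count of genes called between BaP and acetone stayed within 1.5 times of 1918 under quantile normalization over 6 arrays (1960), the deposited log2 values (1866), cyclic loess (1936, added after seeing the data), no normexp (1916), brighter genes only (1943), the mean over probes (1551) and a trend on level (1777). It moved to 5130 with median scaling, to 697 with a normexp offset of 16 and to 1083 with 9 arrays in one fit, and was 1092 to 1799 with an array left out. The cause was not tested for the offset and the 9-array fit. The count of at least 1.5-fold calls, 246, was 1716 with median scaling, 159 with the deposited values and 462 with the offset of 16. Between BaP and DMBA 260 genes became 2072 with median scaling, 147 with the offset of 16, 452 with 9 arrays in one fit and 75 to 798 with an array left out (798 without DMBA replicate 3). With the replicate block the counts were 1497 and 131; same-numbered BaP and acetone arrays deviated from their group means with correlations of -0.147, 0.018 and -0.113, so the numbers were not taken as pairs. Of the values of 159 genes named here under the alternatives, 2763 kept direction and side of the threshold, 96 lost the call, 11 gained one and 9 changed sign. The sign turned for Cyp1a1 at 0.11 (median scaling) and -0.057 to 0.0497 (an array left out), Cyp1b1 at -0.33 (median scaling), Hspb8 at -0.0401 (median scaling), Zp3 at -0.11 (median scaling), Mdm2 at 0.0355 (mean over probes), Calr against DMBA at -0.0411 (median scaling) and Cdkn1a against DMBA at -0.16 to 0.0939 (an array left out). Signal over background limits dim genes: among the dimmest 3578 genes 0.11% were called higher and 0.084% lower.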

Other observations

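Housekeeping, signalling and blood cell lists held calls at shares that moved with the scaling. The shares of all genes were 4.82% higher and 5.9% lower. Of 42 cytosolic ribosomal protein genes, 3 rose (7.14%) and 3 fell (7.14%; with median scaling none higher and 18 lower), with a median of -0.0082 (-0.27 with median scaling). Of 64 oxidative phosphorylation subunit genes, 2 rose (3.12%) and 5 fell (7.81%), and with median scaling 1 was higher and 39 lower. Their median was -0.021 (-0.38 with median scaling). Fewer fell without acetone replicate 2 (1), acetone replicate 3 (3), BaP replicate 2 (2) or BaP replicate 3 (3). Of 42 WNT ligand, receptor and modulator genes, 5 rose, among them the secreted antagonist gene Sfrp2 (0.41), and 4 fell (with median scaling 1 higher and 10 lower). Fewer rose without acetone replicate 1 (3), acetone replicate 2 (3), acetone replicate 3 (3) or BaP replicate 1 (3). The number that fell was smaller without acetone replicate 2 (1), BaP replicate 1 (2) or BaP replicate 2 (2). Of 26 immediate early genes, 3 rose and none fell (with median scaling 1 higher and 6 lower), led by Egr2 (0.71). Of 18 globin and erythroid genes, the transferrin receptor gene Tfrc (-0.44) was among the 2 that fell and the haem synthesis gene Alas2 (0.41/0.0029) rose (with median scaling none higher and 2 lower). Of 20 fat cell genes, the triglyceride synthesis gene Dgat2 (-0.61) was among the 2 that fell, and 2 rose (with median scaling 1 higher and 4 lower).

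Xist, the RNA that silences an X chromosome in female cells, falls outside the rule for named genes and was named after its value was seen. It was at 9.11, 9.20 and 9.04 on the acetone arrays and 8.40, 8.24 and 7.95 on the BaP arrays, and at 8.47, 8.57 and 8.30 on the DMBA arrays (log2 -0.92, SE 0.10, adjusted p = 1.12e-07). The Y-linked genes Ddx3y (-0.14) and Uty (-0.15) were not called. The authors' deposited table lists 205 probes as changed with BaP, 139 higher and 66 lower, and 153 of these are the probe tested here, all 153 called in the same direction, from the same arrays. The others belong to genes tested on a brighter probe and were not tested here. A Tmem14c probe at -2.34 (log2) in the authors' values is absent from the largest decreases above. Other Tmem14c probes gave -0.0515 and -0.20 in those values.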
